A study of Mus musculus with 4 samples.

Results

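The genes described here encode laminin-332, an adhesive protein of the basement membrane, and the hemidesmosome, the junction that holds epithelial cells to it. They were 8 of the 23481 genes in the count table: Lama3, Lamb3, Itga6, Itgb4, Col17a1, Plec, Dst and Cd151. They were taken by gene symbol from a list chosen by function and with earlier fold changes of this same comparison in view, so their own fold changes, and whether a gene was past the threshold of the all-gene test, are given as a description that supports nothing. All 8 had enough reads to be among the 12843 genes tested. The cells were mouse 4T1-T, a subline of the 4T1 mammary carcinoma, and the gene for asparagine synthetase, Asns, was silenced in every library, controls included. One group was grown in DMEM without asparagine and the other in DMEM with asparagine, with 2 libraries (A and B) in each. The means of silencing, the time in the medium and whether libraries came from separate cultures are not given in the labels, so the spread between libraries may be technical and p-values measure only that spread.

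Laminins are secreted trimers of an alpha, a beta and a gamma chain. Lama3 encodes the alpha chain of laminin-332 and Lamb3 its beta chain, and epithelial cells attach to the trimer through integrin receptors. In a hemidesmosome the integrin made of the Itga6 and Itgb4 chains binds laminin-332 outside the cell and the linker protein plectin, from Plec, inside it. The transmembrane collagen XVII, from Col17a1, and BP230, an epithelial product of Dst, complete the link to keratin filaments, and the tetraspanin from Cd151 associates with the laminin-binding integrins. In mammary epithelium these junctions lie at the base of the myoepithelial cells.

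Reads assigned to genes ranged from 17977552 to 30260582 per library. Library A without asparagine stood apart: 56.6% of its reads fell outside annotated features against 46.3% to 49.3% in the other libraries, and the ribosomal RNA precursor Rn45s took 3.53% of its gene counts against 0.884% to 1.66%. Asns itself ranged from 75.0 to 103 CPM (CPM being gene counts scaled to library size, with TMM factors), and no unsilenced library was analysed here. Pairs of library values are given in the order library A, library B throughout. The summed level of 11 epithelial markers was 1063 and 1047 CPM without asparagine, against 860.5 and 955.1 CPM with it, and Krt8 and Krt18, the keratins of simple epithelium, ranged from 198.9 to 273.9 CPM. Of 10 epithelial markers tested, 2 rose (Epcam and Esrp1) in the edgeR test, which called 1.85% of all genes. The DESeq2 Wald test, which called 193 genes higher and 271 lower over all genes, called Cdh1 as well, higher without asparagine. These totals apply to every call of that test named below. The defining basal genes Trp63 and Krt5 had at most 6 reads in any library. Markers of leukocytes summed to between 6.98 and 8.01 CPM and those of endothelium to between 1.97 and 3.60 CPM. Fibroblast markers summed to 18.75 and 23.62 CPM without asparagine, against 43.59 and 41.47 CPM with it, 8 of the 9 were under 1 CPM in every library, and Pdgfra gave nearly all of the sum. Thy1 and Cd3e had 0 reads. Pdgfra was the 1 fibroblast marker tested and was lower without asparagine, and none of the 2 leukocyte and 3 endothelial markers tested was called. The part of these differences in the results was not tested.

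The laminin genes Lama3 and Lamb3 were higher in the cells without asparagine, while the receptor, linker and plaque genes of the hemidesmosome were not past the threshold in either direction. Lama3, which encodes the alpha chain of the trimer, had 45.2 and 47.0 CPM without asparagine, against 22.02 and 20.2 CPM with it. Both libraries without asparagine were thus above both libraries with it, and the libraries of a group lay close together. In bulk RNA a change in the number of cells that express a gene and a change in RNA per cell cannot be told apart. The means were 46.1 ± 1.26 CPM and 21.1 ± 1.28 CPM (SD, n = 2 each), a 2.18-fold difference (log2 fold change 1.13 ± 0.11, SE). Lamb3, which encodes the beta chain, had 62.7 and 69.7 CPM without asparagine, against 24.8 and 27.7 CPM with it, again with no overlap. Its means were 66.2 ± 4.95 CPM and 26.3 ± 1.99 CPM (SD, n = 2 each), a 2.52-fold difference (log2 fold change 1.33 ± 0.12, SE).

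These 2 of the 8 genes were past the threshold of the edgeR test across all genes, both of them higher, and 0 were lower. In that test 1.85% of all genes were called, 0.771% higher and 1.07% lower. Because the list was chosen with this comparison known, nothing is read from the count of 2 in 8. With a library left out the log2 fold change of Lama3 ran from 1.06 to 1.19 and that of Lamb3 from 1.25 to 1.41. Lama3 was not past the threshold without library B with asparagine, where its value was 1.06 ± 0.23 (SE). Lama3 rested on 524 to 1050 reads a library and Lamb3 on 591 to 1558. Lama3 lies on chromosome 18 from 12333819 to 12583013 on the plus strand (GRCm38).

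**Figure D1:**
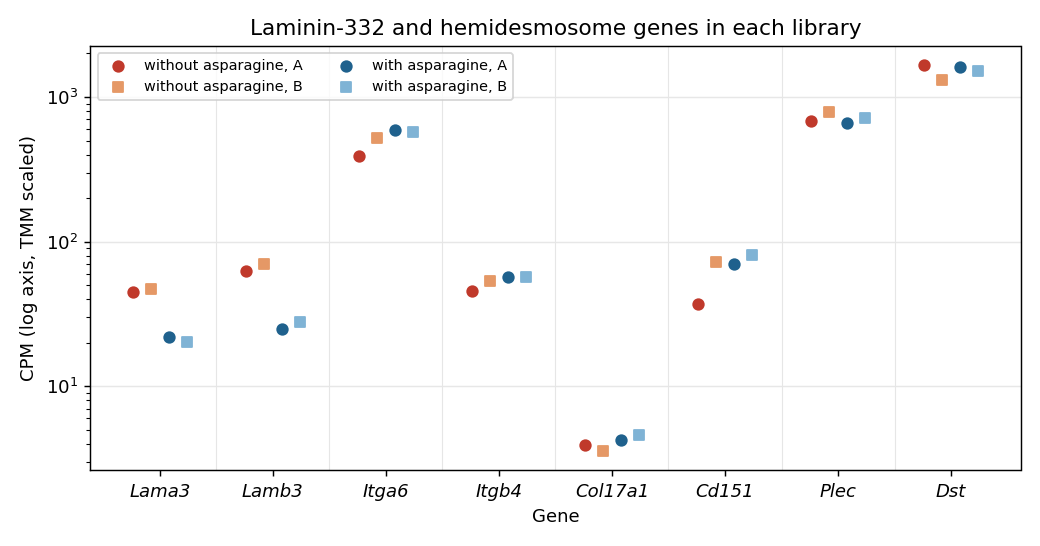
Level of each gene in each of the 4 libraries, in CPM on a log axis. The points of Lama3 and Lamb3 without asparagine (red and orange) lie above those with it (blue), while library A without asparagine lies lowest for Itga6, Itgb4 and Cd151.

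A list of 8 other laminin chains was read beside them, of which 4 were tested and 0 called by edgeR, limma-voom or the DESeq2 Wald test. At an unadjusted edgeR p under 0.05 there were 2, both lower. The share of all genes under that cut was not counted, so nothing is read from this. Lamc1, the gamma chain of most other laminins, had 457.9 and 579.2 CPM without asparagine, against 605.0 and 641.2 CPM with it (log2 fold change -0.26, edgeR adjusted p = 0.356). Lamb1, a widely expressed beta chain, had 456.7 and 452.5 CPM without asparagine, against 498.9 and 489.2 CPM with it (log2 fold change -0.12, edgeR adjusted p = 0.544). Lama5 and Lamb2 had log2 fold changes of -0.26 and -0.35. The median over the 4 chains was -0.26, against 0.01 over all genes tested. Lama1, Lama2, Lama4 and Lamc3 had at most 6 reads in any library and were not tested.

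Levels per kilobase of merged exons allowed chains to be compared within a class. Merged exons pool all forms of a gene, so these levels depend on which forms were made. Among the alpha chains, Lama3 made up 16.7% and 16.8% of the summed level without asparagine, against 7.55% and 6.77% with it, and Lama5, the chain of laminins found in most epithelia, made up nearly all the rest. Among the beta chains, Lamb3 made up 16.2% and 17.9% without asparagine and 6.50% and 7.32% with it, beside a large excess of Lamb1. Lamb2 made up 5.23% and 4.62% without asparagine and 6.48% and 6.34% with it. Lama3 and Lamb3 therefore lay below the main chain of their class, Lama5 or Lamb1, in every library. In both classes the share of Lama3 or Lamb3 was higher in both libraries without asparagine.

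**Figure D2:**
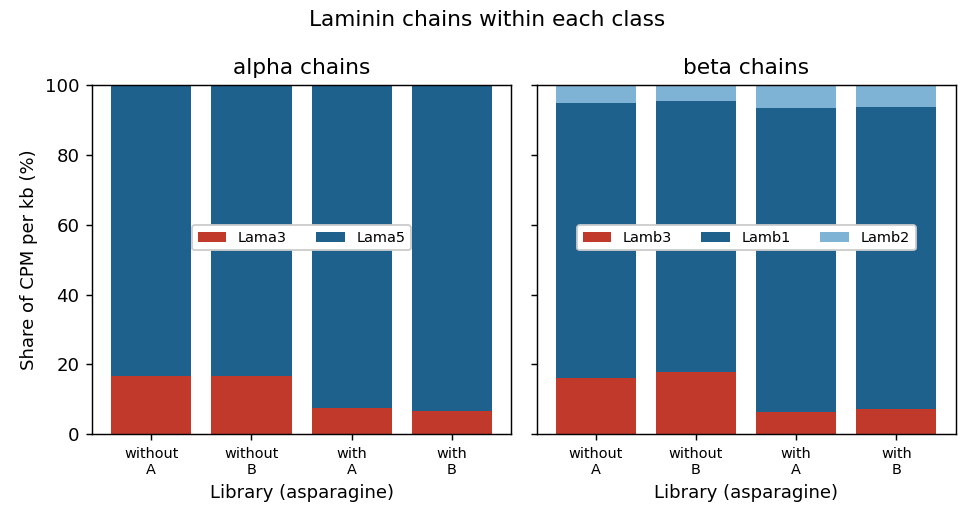
Share of each laminin chain in the summed CPM per kilobase of its class, in percent, for each library. Lama3 and Lamb3 (red) reach 16.2% to 17.9% of their class without asparagine and 6.50% to 7.55% with it; chains under 1% in all libraries are not drawn.

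Lamb3 stood above Lama3 in every library. Per kilobase of merged exons, Lamb3 had a mean of 10.01 ± 0.749 CPM without and 3.97 ± 0.301 CPM with asparagine, and Lama3 4.29 ± 0.117 and 1.97 ± 0.119 CPM (SD, n = 2 each). The ratio of Lama3 to Lamb3 was 0.444 and 0.415 without asparagine and 0.546 and 0.450 with it. The ratio is a description, since both genes were chosen with this comparison known. The exon length of Lama3 pools a short and a long form, so its ratio would be higher if only a shorter form was read.

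A start region of Lamb3 is shown because it is the listed gene with the greatest fold change. GENCODE M21 gives Lamb3 4 distinct protein-coding starts over 94518 bases. The RefSeq windows cover 2 starts 249 bases apart, and each window below runs from 250 bases before a start to 50 after it, on the plus strand of GRCm38.p6. The first window is chr1:193301744-193302043 and the second chr1:193301993-193302292, and they share 51 bases. Col17a1, which stayed low in every library, is shown for comparison at chr19:47691993-47692292 on the minus strand. Capitals mark matches, on either strand, to 4 short motifs: TGANTCA for AP-1, GGAATG for TEAD factors, GGGCGG for the GC box and TATAAA for the TATA box.
Lamb3 first start: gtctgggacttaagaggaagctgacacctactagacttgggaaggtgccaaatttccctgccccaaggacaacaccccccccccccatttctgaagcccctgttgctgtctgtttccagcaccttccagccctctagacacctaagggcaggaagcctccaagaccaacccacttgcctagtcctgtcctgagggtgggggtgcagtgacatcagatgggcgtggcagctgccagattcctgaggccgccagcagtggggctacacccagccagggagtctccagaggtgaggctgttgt
Lamb3 second start: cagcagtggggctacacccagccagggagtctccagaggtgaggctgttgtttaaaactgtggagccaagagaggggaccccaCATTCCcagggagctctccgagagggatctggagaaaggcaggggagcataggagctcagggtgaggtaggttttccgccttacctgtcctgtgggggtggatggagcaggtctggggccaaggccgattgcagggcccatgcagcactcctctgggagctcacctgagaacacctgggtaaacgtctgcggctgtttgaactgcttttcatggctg
Col17a1 start: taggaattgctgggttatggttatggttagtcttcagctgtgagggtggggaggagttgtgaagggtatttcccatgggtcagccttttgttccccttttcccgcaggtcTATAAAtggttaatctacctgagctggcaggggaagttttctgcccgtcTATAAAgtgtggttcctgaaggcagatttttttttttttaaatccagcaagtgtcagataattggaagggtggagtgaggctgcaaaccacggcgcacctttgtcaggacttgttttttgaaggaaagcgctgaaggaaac
None of the 4 motifs was in the first window of Lamb3. The second held a single TEAD match, on the opposite strand, at position -167 from the start. Col17a1 held a pair of TATAAA matches, beginning at positions -140 and -91 from its start. Of all 32851 RefSeq windows of this length, 7.81% held the AP-1 letters, 14.7% the TEAD letters, 35.7% the GC box and 13.6% TATAAA. A match of this kind describes letters and does not show binding. In GENCODE M21 Lamb3 lies at chromosome 1 from 193207699 to 193343878 and Col17a1 at chromosome 19 from 47646344 to 47692094. Windows were found for 4 of the 8 genes, the others being Dst and Cd151, and none for Lama3, Itga6, Itgb4 and Plec. Of the 2 windows of Dst the first held 4 GC boxes, and the first of Cd151 held 2. The AP-1 letters were in none of the 7 windows read.

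Both receptor genes had log2 fold changes below 0 that were not past the threshold. Itga6, the alpha chain of the integrin, had 388.4 and 517.7 CPM without asparagine, against 591.5 and 572.2 CPM with it. The groups did not overlap, but library A without asparagine was far below the other 3. The log2 fold change was -0.36 ± 0.15 (SE). It was -0.17 when that library was left out and -0.59 when its partner was. Those fits leave 1 library without asparagine and assume that it varies like the other group. Whether they called a gene is therefore not read for Itga6 or the genes below.

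Itgb4, the beta chain with the long cytoplasmic tail that binds plectin, had 45.3 and 53.3 CPM without asparagine and 56.8 CPM in each library with it. The groups did not overlap, and the log2 fold change was -0.20 ± 0.12 (SE). With library A lacking asparagine left out it was -0.09, and with library B left out it was -0.33.

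Itga6 was far more abundant than its partner in all libraries. Per kilobase of merged exons the ratio of Itga6 to Itgb4 was 6.67 and 7.55 without asparagine and 8.09 and 7.82 with it. Itgb1, the other chain with which the Itga6 product can pair, stood at 25.7 times the level of Itgb4 on the same scale, as a geometric mean over the 4 libraries. Itga6 lies on chromosome 2 from 71745616 to 71858416 and Itgb4 on chromosome 11 from 115974709 to 116008412.

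Cd151 was the gene whose value depended most on 1 library. It had 36.9 and 72.1 CPM without asparagine, against 70.0 and 81.0 CPM with it, so library B lay among the libraries with asparagine and only library A was low. The log2 fold change was -0.47 ± 0.28 (SE), which was not past the threshold. It moved to -0.07 when library A lacking asparagine was left out and to -1.04 when its partner was. With all libraries and no low-count filter the value was also -0.47, past the threshold. Libraries A and B without asparagine differed by -0.96 on the log2 scale (A minus B), and only 437 of the 12843 genes tested were at least as far apart. Cd151 lies on chromosome 7 from 141467392 to 141471473.

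Col17a1 was the least abundant of the 8, with 72 to 138 reads a library. It had 3.92 and 3.58 CPM without asparagine, against 4.29 and 4.60 CPM with it. The groups did not overlap, yet the log2 fold change of -0.25 ± 0.19 (SE) was little larger than its error. Per kilobase of merged exons its mean was 0.682 CPM over the 4 libraries, against 7.57 CPM for Itgb4 and 39.3 CPM for Plec.

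The plaque genes Plec and Dst were abundant and showed no fixed direction. Plec, the linker between integrin and keratin filaments, had 678.5 and 786.8 CPM without asparagine, against 662.6 and 718.5 CPM with it. The groups overlapped, and the log2 fold change was 0.09 ± 0.12 (SE). It moved to 0.19 when library A lacking asparagine was left out and to -0.03 when library B was. Dst had 1657 and 1309 CPM without asparagine, against 1606 and 1523 CPM with it, so the libraries without asparagine lay on either side of the others. Its log2 fold change was -0.08 ± 0.14 (SE), moving to -0.26 and 0.08 in the same fits.

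Counts per gene pool all products of a gene, and this bears most on the plaque genes. GENCODE M21 gives 15 distinct starts of protein-coding transcripts for Plec and 11 for Dst, spread over 44527 and 386221 bases, so the BP230 form of Dst could not be separated from its neuronal and muscle forms. Lama3 has 2 such starts, for a short and a long alpha chain, 170380 bases apart. Exons of Lama3, Itgb4, Cd151 and Dst overlap those of opposite-strand genes, and those of Plec overlap Parp10 on the same strand. How reads there were counted is not stated, so some could belong to neighbours or have been left uncounted as ambiguous. Among the related and marker genes named here, exons of Dsp, Itga8, Adam17, Cd9, Esrp1, Bnc1 and Pdgfra have such opposite-strand overlaps too. So do those of Krt8, Krt5, Lama2, Lamc3 and Cd3e. On the same strand, exons of Eppk1, Col7a1, Tspan15 and Pdgfra overlap those of other genes. Plec lies on chromosome 15 from 76170974 to 76232574 and Dst on chromosome 1 from 33908225 to 34308661.

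Across the 8 genes, the order by mean level per kilobase of merged exons was Itga6, Plec, Dst, Cd151, Itgb4, Lamb3, Lama3 and Col17a1, from 57.3 CPM down to 0.682 CPM. Per kilobase of coding sequence Itga6 was again first and Col17a1 last, but Cd151 and Dst passed Plec, and Lamb3 passed Itgb4. By exon length the neighbours Plec and Dst were not separated beyond their spread: Plec had 38.1 ± 2.18 CPM and Dst 38.0 ± 1.43 CPM with asparagine (SD, n = 2 each). Lamb3 and Itgb4 changed places between the media, with 10.01 against 7.03 CPM without asparagine and 3.97 against 8.10 CPM with it.

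The log2 fold changes of the 8 ran from -0.47 to 1.33, with 3 above and 5 below 0 and a median of -0.14. The groups did not overlap for 5 of the 8, of which 2 were higher and 3 lower, and the same held for 52.5% of all genes tested. The 6 genes other than Lama3 and Lamb3 lay within 0.47 of 0. Within the cells without asparagine, Lama3 and Lamb3 differed between libraries A and B by -0.06 and -0.15 on the log2 scale, against a median absolute difference of 0.22 over all genes. A gene past the threshold tends to differ little within its groups, so these small differences support nothing. Without asparagine, Itga6, Dst and Cd151 differed by -0.41, 0.34 and -0.96. With asparagine, the differences of all 8 between libraries were at most 0.21 in size.

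**Figure D3:**
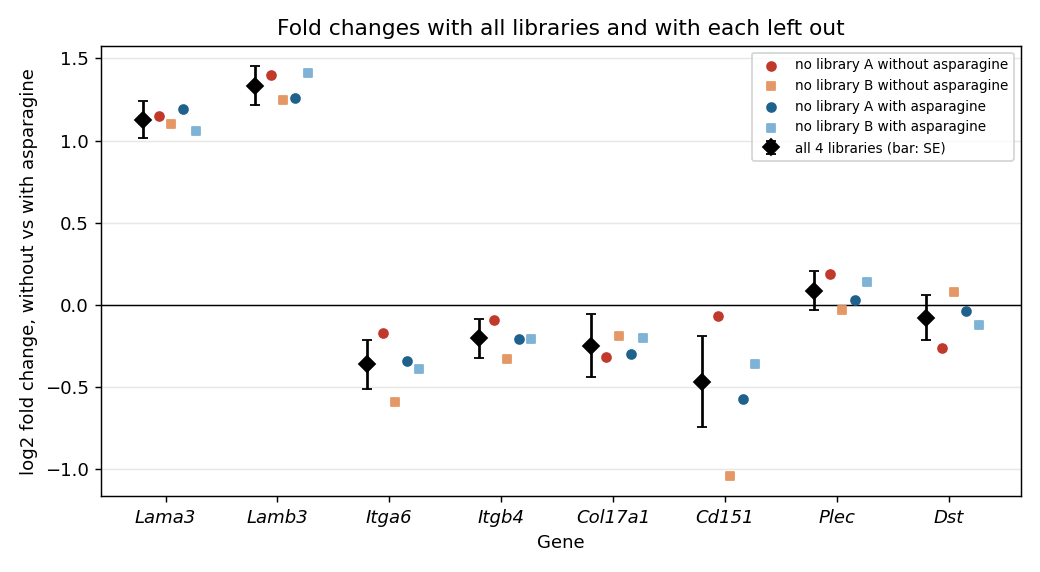
Log2 fold change of each gene, without against with asparagine, fitted with all 4 libraries (black, bar is the SE) and with each library left out (colours). Lama3 and Lamb3 stay above 1 in every fit, while Cd151 moves from -1.04 to -0.07 and Plec and Dst cross 0.

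Other adhesion genes were read from lists of related genes, 94 of which were tested. Over all these lists the edgeR test called 7 genes higher and 4 lower, and the median log2 fold change was -0.105. Of all genes tested it called 1.85%, 0.771% higher and 1.07% lower, and these shares apply to each list below. The lists were chosen with earlier results of these data known, so nothing is read from the counts. With any library left out, the log2 fold changes of the 11 called genes kept their sign. The value of Krt16 was 2.66 without library B with asparagine and 3.40 without library A with asparagine. That of Itgb6 was 2.13 and 1.69 in the same fits. Lad1 had 0.65 without library A lacking asparagine and 1.05 without library B lacking it. Each such fit leaves a group without a replicate and assumes that it varies like the other group. Whether such a fit called a gene is therefore not read here.

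Among 15 other integrin chains tested, 1 rose and 2 fell, with a median of -0.12. Itgb6, the beta chain of an epithelial receptor that activates TGF-beta, rose from 1.77 and 2.40 CPM with asparagine to 8.502 and 7.07 CPM without it, a 3.69-fold difference (log2 fold change 1.88, edgeR adjusted p = 0.0145). Itgb2, the beta chain of the leukocyte integrins, fell from 38.5 and 37.1 CPM to 11.6 and 13.4 CPM (log2 fold change -1.59, edgeR adjusted p = 0.00511). The leukocyte markers together came to at most 8.01 CPM, most of it from Cd68, and the source of the Itgb2 reads was not tested. Itga8, a receptor chain for nephronectin, fell from 9.37 and 8.47 CPM to 3.54 and 3.49 CPM (log2 fold change -1.34, edgeR adjusted p = 0.0182). The laminin-binding chain Itga3, singled out after its values were seen, had 534.6 and 640.4 CPM without asparagine, against 636.5 and 657.8 CPM with it (log2 fold change -0.14, edgeR adjusted p = 0.572).

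Of 19 other genes of the basement membrane and its anchorage, 2 rose and 1 fell, with a median of -0.07. Fbln2, which encodes the matrix protein fibulin-2, had 294.0 and 340.6 CPM without asparagine, against 150.3 and 158.7 CPM with it (log2 fold change 1.04, edgeR adjusted p = 0.0108). Lad1, which encodes ladinin-1, a filament-associated protein of epithelial cells, rose 1.82-fold to 134.6 and 102.2 CPM (edgeR adjusted p = 0.0470). Col18a1, a collagen of basement membranes, fell from 90.2 and 94.5 CPM to 60.0 and 61.9 CPM (log2 fold change -0.60, edgeR adjusted p = 0.0384). Col7a1, the collagen of the anchoring fibrils beneath hemidesmosomes, was singled out after its values were seen. It had 182.4 and 131.1 CPM without asparagine, against 88.0 and 86.7 CPM with it (log2 fold change 0.84, edgeR adjusted p = 0.0595). Col7a1 did not pass the edgeR test but was called by the DESeq2 Wald test.

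Of the 5 other plakins, relatives of Plec and Dst, 1 rose and 1 fell. Dsp, the plakin of desmosomes, had 177.7 and 177.1 CPM without asparagine, against 96.9 and 103.9 CPM with it (log2 fold change 0.82, edgeR adjusted p = 0.0145). Ppl, which encodes periplakin, fell from 142.3 and 144.7 CPM to 100.5 and 96.3 CPM (log2 fold change -0.54, edgeR adjusted p = 0.0481). The other 3 were not called by edgeR, and the median of the 5 was 0.38. The DESeq2 Wald test also called Eppk1, named after its values were seen, with an edgeR log2 fold change of 0.86.

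Of 3 further lists edgeR and limma-voom called 0 genes. At an unadjusted edgeR p under 0.05 there were 3 tetraspanins, 3 proteases and 4 adaptors. The share of all genes under that cut was not counted, so nothing is read from these. The DESeq2 Wald test called 1 tetraspanin, Tspan15, and 1 adaptor, Kank2, both named after their values were seen. The 14 other tetraspanins tested had a median of -0.14, and the most abundant, Cd9 and Cd63, had log2 fold changes of -0.05 and -0.01, both of which turned positive with upper quartile scaling (0.01 and 0.03). The 7 tested proteases that process laminins or collagen XVII had a median of -0.30, and all 7 values were below 0. Adam17, a sheddase of collagen XVII, had 163.2 and 193.7 CPM without asparagine, against 218.0 and 220.2 CPM with it (log2 fold change -0.30, edgeR adjusted p = 0.250). Plau, the urokinase gene, had a log2 fold change of -0.32 (edgeR adjusted p = 0.164). The 23 tested adaptors of focal adhesions, the actin-linked junctions that also use integrins, had a median of -0.10. The most abundant of them were Tns4, with a log2 fold change of -0.39 (edgeR adjusted p = 0.153), and Flna, with -0.03, or 0.02 with upper quartile scaling.

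Genes of basal epithelium, the layer that carries hemidesmosomes, had 7 members with enough reads to test and a median of 0.92. Of these, 3 rose: Krt14, Krt16 and Perp. Krt14, the keratin that pairs with Krt5 in basal cells, had 32.6 and 27.4 CPM without asparagine, against 3.99 and 4.97 CPM with it (log2 fold change 2.73, edgeR adjusted p = 0.00434). Krt16, a keratin of stressed epidermis, had 2.13 and 2.19 CPM without asparagine, against 0.336 and 0.200 CPM with it (edgeR adjusted p = 0.0158), from 6 to 49 reads a library. Perp, a membrane protein of desmosomes, rose 1.83-fold to 104.2 and 114.1 CPM (edgeR adjusted p = 0.0144). The 4 others tested were Dsg3, Sfn and Pkp1, with values above 0, and Bnc1, with a value below 0, all 4 named after their values were seen. Bnc1, which encodes the zinc finger protein basonuclin 1, had 63.9 and 59.7 CPM without asparagine, against 92.8 and 87.3 CPM with it (log2 fold change -0.54, edgeR adjusted p = 0.0609). The DESeq2 Wald test called Bnc1 and Dsg3 as well. The whole list of 16 summed to 231.7 and 234.2 CPM without asparagine, against 174.6 and 171.4 CPM with it. The other 9 genes of this list, Trp63 and Krt5 among them, were under 1 CPM in every library.

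**Figure D4:**
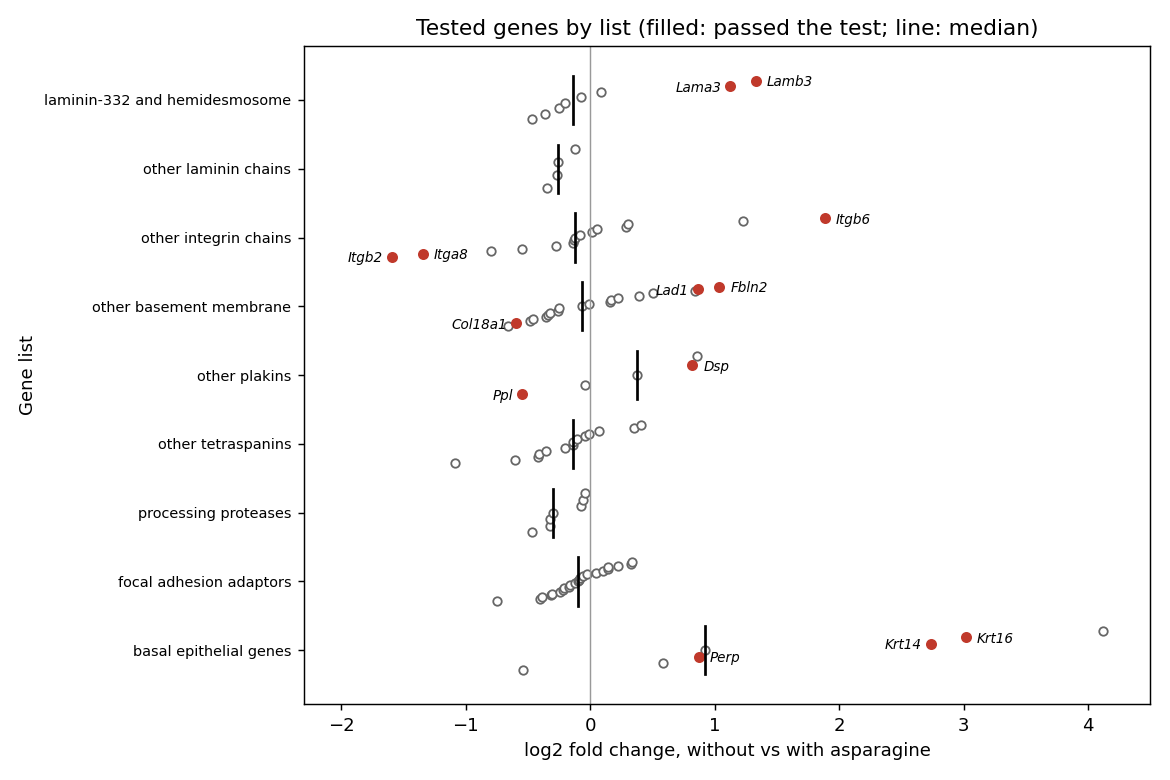
Log2 fold change of every tested gene in the list of 8 and in 8 lists of related genes, without against with asparagine. Filled, named points passed the all-gene edgeR test, open points did not, and black lines mark list medians, which lie between -0.30 and 0.92.

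The genes with the pattern most like that of Lamb3 over the 4 libraries were sought by the Euclidean distance between centred log2 CPM values, among the 9368 genes whose mean level reached 5 CPM. The nearest were Esrp1, Wnt10a, Dynap, C3 and Adam12, at distances of 0.108 to 0.208. Esrp1, an epithelial splicing regulator, had 15.4 and 19.0 CPM without and 6.39 and 6.97 CPM with asparagine. C3, the central complement component, had 16.9 and 21.2 CPM without and 7.31 and 8.94 CPM with it. Wnt10a had 6.98 and 7.74 CPM without asparagine, against 2.82 and 2.77 CPM with it. Dynap had 44.1 and 48.8 CPM without and 16.5 and 17.2 CPM with asparagine. Adam12, a disintegrin metalloprotease gene, had 56.0 and 63.0 CPM without and 26.6 and 26.9 CPM with it. Lama3 ranked 9 in this order, at a distance of 0.294. With 4 libraries such a distance mostly reflects the size of the difference between the media.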

How the data were processed

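Total RNA of 4 libraries was sequenced, 2 from cells without and 2 from cells with asparagine in the medium. The authors deposited whole-number read counts per gene symbol, not normalised. Bowtie2, HTSeq and the build mm10 are named in the submitters' processing notes, and versions, settings, annotation and strand use were not given in any source used here. Columns were matched to samples by the labels' descriptions. HTSeq's summary rows, 60.1% to 70.0% of the reads of a library, were left out of library sizes and tests. Libraries of a group differed beyond sampling noise (chi-square per degree of freedom 44.7 without and 5.27 with asparagine). Libraries were made with the Nugen Ovation RNAseq V2 kit, per the labels. Bowtie2 does not split reads over introns; whether a spliced aligner was used with it is not stated.

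Genes were kept by filterByExpr (minimum count 10, minimum total 15), scaled by TMM and fitted with the quasi-likelihood test of edgeR 4.0.16 in R 4.3.3, without a term for the letter. P-values were adjusted by Benjamini-Hochberg over all 12843 genes, with a threshold of 0.05. Fold changes are without over with asparagine, and log2 CPM used a prior count of 2. The SE is the absolute log2 fold change divided by the square root of F. The script was tested on simulated data. Exon lengths and positions came from GENCODE M21 (GRCm38), and start windows from RefSeq (GRCm38.p6). Alternatives were DESeq2 1.42.0, its size factors, limma 3.58.1 (voom), upper quartile scaling, other filters, the letter as a block, the 10 most abundant genes left out, coding length, and each library left out, where a group of 1 was assumed to vary like the other.

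The 8 genes and the lists of related genes were chosen with earlier results of these data known. One item is not reported here and was left out of the list counts. The text names the 8 genes; from each related list up to 3 called genes with the largest change, filled up to 2 with the most abundant; and the 5 genes nearest to Lamb3. Any other gene was singled out after its values were seen.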

Additional observations from a re-analysis of the deposited data

How the results depend on the processing

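As a description, Lama3 and Lamb3 were past the threshold in every fit that used all 4 libraries. These fits reuse the same libraries, and both genes were chosen with this comparison known, so this supports nothing. With a library left out, the log2 fold change of Lama3 ran from 1.06 to 1.19 and that of Lamb3 from 1.25 to 1.41. The number of all genes called, 99 higher and 138 lower, was 193 and 271 with the DESeq2 Wald test, 615 and 719 with no low-count filter, and 24 to 2502 and 24 to 2861 with a library left out. Of the 8 genes, 2 were called higher and 0 lower with all libraries. With no low-count filter 1 of them, Cd151, was called lower (-0.47), and leaving out a library gave 1 to 3 higher and 0 to 3 lower. Of the related genes, 7 were higher and 4 lower; 7 were lower with the DESeq2 Wald test, 12 higher and 13 lower with no low-count filter, and 2 to 18 higher and 1 to 40 lower with a library left out. The letters A and B do not state a shared culture or day, and the differences A minus B of the 2 groups had a correlation of 0.123 across genes. With the letter as a replicate block 344 genes were higher and 472 lower, 1 of the 8 genes, Cd151, among the lower (-0.54), and 12 related genes were higher and 10 lower. Ppl was not called with upper quartile scaling (-0.50) or the filter of 5 CPM, nor was Lad1 under that filter (0.88), which left Col17a1 untested. Values near 0 changed sign: Cd9, Cd63 and Flna with upper quartile scaling (0.01, 0.03 and 0.02), and with libraries left out Plec (-0.03 to 0.19), Dst (-0.26 to 0.08), Cd9 (-0.23 to 0.11), Cd63 (-0.10 to 0.07) and Flna (-0.19 to 0.12). With coding length in place of exon length, the mean log2 ratio of Itga6 to Itgb4 was 4.01 instead of 2.91 and that of Lama3 to Lamb3 -1.93 instead of -1.12. The causes were not tested. Of the 8 genes Col17a1 had the fewest reads, 72 in its smallest library, and among the called related genes Krt16 had 6, Itgb6 42 and Itga8 65 in theirs.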
